A study of Homo sapiens with 6 samples.

Results

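The 4 HOX gene clusters were examined in chromatin accessibility maps of LNCaP cells, an established human prostate cancer line that responds to androgens. Member sites were all peaks overlapping fixed hg19 windows around the clusters. The rule itself uses no measured value, but the windows were chosen with earlier results of these data known. The HOXA window was on chromosome 7 from 27130000 to 27250000, HOXB on chromosome 17 from 46600000 to 46810000, HOXC on chromosome 12 from 54330000 to 54450000, and HOXD on chromosome 2 from 176950000 to 177060000. Together they span 560 kb and carry 38 of the genes considered here, 10 each in HOXA and HOXB and 9 each in HOXC and HOXD. The windows held 25 peaks: 10 of the 12096 peaks listed for shCON CDT, 5 of 12896 for shCON DHT and 10 of 14788 for shRB CDT. Joined where they overlapped by at least 1 bp across lists, they formed 18 of the 21031 accessible regions of the study.

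Open chromatin was mapped by ATAC-seq, in which a transposase inserts sequencing adapters into accessible DNA. The cells expressed either a control hairpin (shCON) or one that depletes RB, the retinoblastoma tumour suppressor (shRB), and each of 3 groups had 2 libraries. All cells received 72 hours of CDT, the hormone-deficient condition. The shCON CDT and shRB CDT cells received nothing more, and the shCON DHT cells were given dihydrotestosterone (DHT), an androgen, for 3 hours before harvest. Whether the hairpin lines were clones or pools, and whether the paired libraries are separate cultures, is not given in the sources used here. RB itself is not measured by these lists. The authors combined both libraries of a group into 1 peak list, so no difference between groups could be set against the spread between replicates, and none was tested. Each peak has a whole-number score from the authors, which ends at a cap of 1000 and was used only to describe and rank peaks within a list. The depth of sequencing is unknown. A site missing from a list is one that did not pass the authors' threshold, not one measured as closed.

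HOX genes encode homeodomain transcription factors that specify position along the body axis. Within a cluster, the genes at one end act in anterior structures and those at the other end in posterior ones, among them the urogenital tract. In differentiated cells, inactive HOX genes are commonly covered by Polycomb-repressed chromatin, and active ones lie in open stretches. HOXB13 stands apart from the rest of the HOXB cluster, is a marker of luminal prostate cells and is a known binding partner of the androgen receptor. In the GRCh38 gene table of RefSeq, the genes named here run from HOXA2 at the low-coordinate end to HOXA13 at the high end, and from HOXB1 to HOXB13. HOXC and HOXD run the other way, from HOXC13 to the overlapping HOXC4, HOXC5 and HOXC6, and from HOXD13 to HOXD1. Since that table is of another genome build than the peaks, its positions were not used, and only HOXB13, whose hg19 start at 46806111 was given, was tied to a peak.

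**Figure D1:**
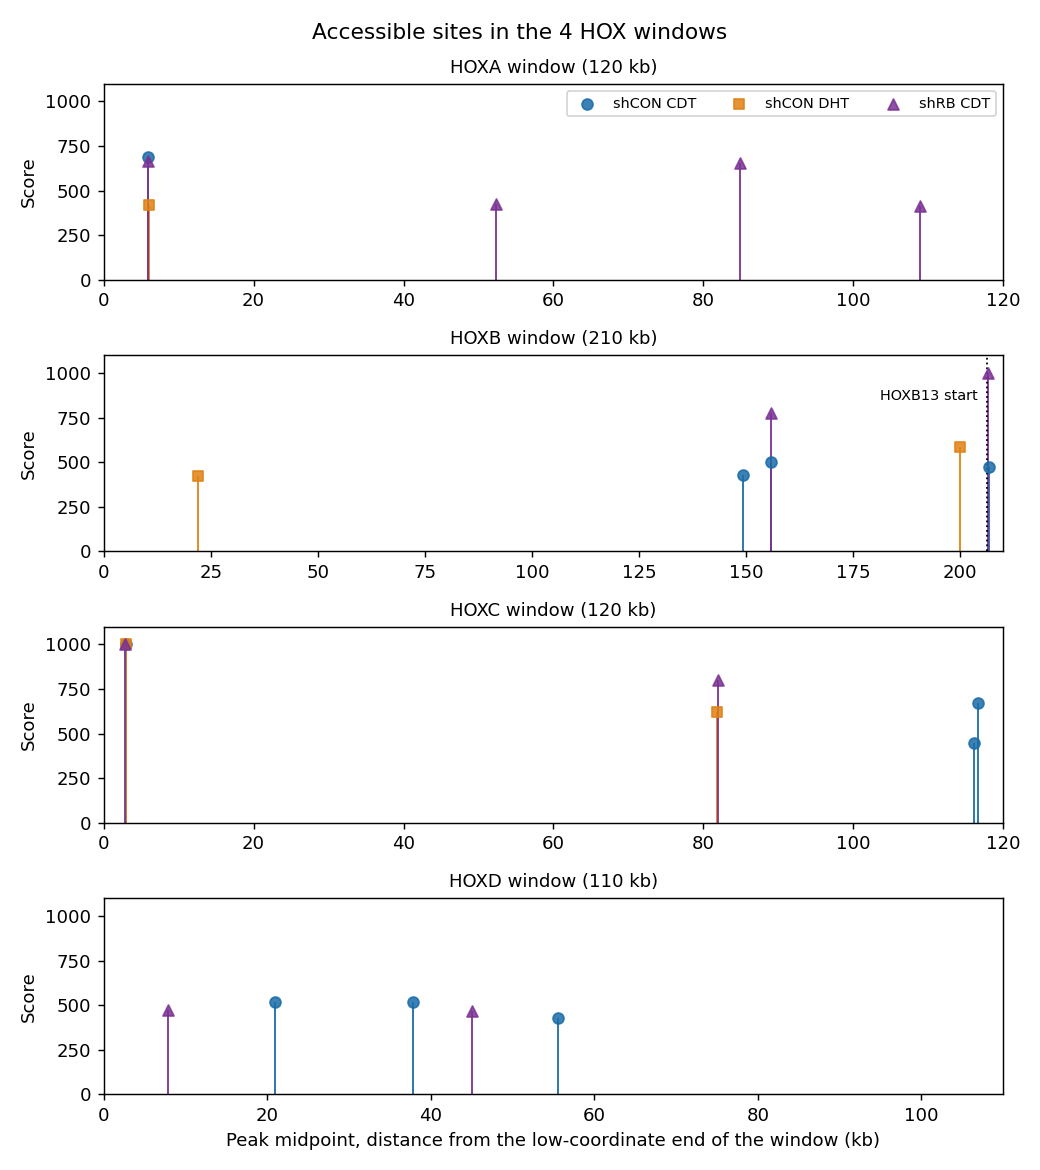
Score of every peak (y axis, no unit, cap 1000) against the distance of its midpoint from the low-coordinate end of the window in kb (x axis), 1 panel per HOX window, with colours and markers for the 3 lists. Shared sites at the low end of HOXA and HOXC appear in all 3 lists, HOXD has no shCON DHT marker, and the highest HOXB marker, at 1000, is the shRB CDT peak at the HOXB13 start.

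The HOXB13 start carried a peak in 1 list, had a peak beside it in another and had none in the third. In shRB CDT a peak from 46805908 to 46807031 on chromosome 17 covered the start, reaching from 203 bp below it to 920 bp above it, with a score of 1000. HOXB13 is read towards lower coordinates, so most of this peak lay on the promoter side. In shCON CDT a peak from 46806315 to 46807125 began 204 bp above the start and scored 473, and 13.9% of that list scored lower. The peaks had 717 bp in common, which is 88.4% of the shCON CDT peak and 63.8% of the shRB CDT peak. Both CDT lists thus held the promoter-side site, with the start inside the peak in shRB CDT and outside it in shCON CDT. In shCON DHT no peak lay at the HOXB13 start.

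The nearest shCON DHT peak to HOXB13 ran from 46799789 to 46800212, ended 5.90 kb below the start and scored 586. It overlapped no peak of the other lists. Towards higher coordinates the next shCON DHT peak was 87.9 kb away, outside the window, with peaks of shCON CDT and shRB CDT 88.0 and 87.8 kb away. Across the genome, 345 of 5149 regions with a shRB CDT peak at the cap (6.70%) had no shCON DHT peak. Of the 1400 regions listed in shCON CDT and shRB CDT but not in shCON DHT, 247 (17.6%) had a shRB CDT peak at the cap, and in 25 of those 247 (10.1%) the shCON CDT score was below 500, HOXB13 among them. These shares describe how often such a combination was listed, and scores of different lists are not on a shared scale. Whether the start falls inside the shRB CDT peak depended on peak width: with every peak reset to 500 bp around its midpoint, it was covered in no list, since the shRB CDT midpoint lay 358 bp above it.

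**Figure D2:**
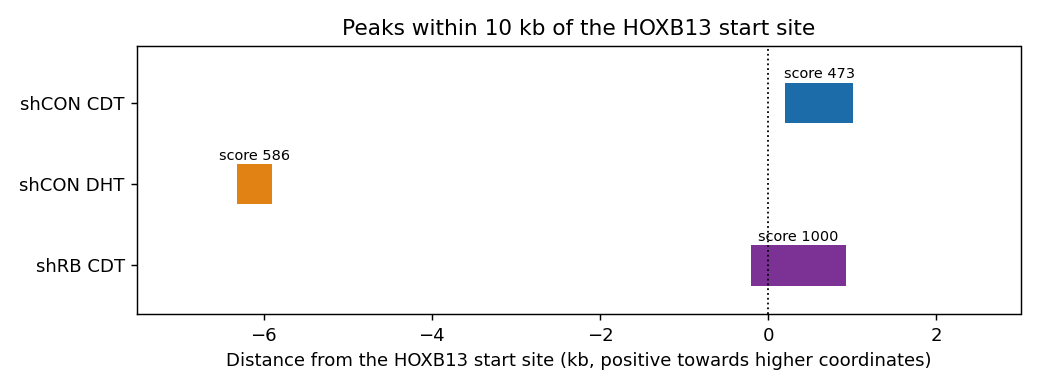
Peaks within 10 kb of the HOXB13 start drawn to scale, with distance from the start in kb on the x axis (positive towards higher coordinates), 1 row per list and the score above each bar. The shRB CDT bar spans the start, the shCON CDT bar begins 204 bp above it, and the single shCON DHT bar ends 5.90 kb below it.

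Apart from the promoter-side HOXB13 site, HOXB held 2 peaks of shCON CDT, 2 of shCON DHT and 1 of shRB CDT. No list had a peak between 46622278 and 46749087, a stretch of 127 kb. It was picked as the longest gap of the window, so the median gap between neighbouring regions of the study, 56.1 kb, is not a like measure. How many gaps of the study are as long was not counted. Below that stretch lay 1 peak, in shCON DHT, from 46621933 to 46622277, with a score of 420. Above it, a shCON CDT peak from 46749088 to 46749436 scored 426 and overlapped no other list. A site from 46755366 to 46756321, about 49.8 kb below the HOXB13 start, was listed in shCON CDT with a score of 499 and in shRB CDT with 775. The whole shCON CDT peak there lay inside the shRB CDT peak. The nearest shCON DHT peak was 43.5 kb away. All HOXB peaks of shCON CDT and shRB CDT were therefore in the high-coordinate part of the window, at 71.1% of its length or beyond, on the side of HOXB13.

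HOXC held a site at the score cap in all 3 lists. It lay near the low-coordinate end of the window, the side of HOXC13, a paralogue of HOXB13 known for its role in hair and nail. The peak ran from 54332113 to 54333857 in shCON CDT, from 54332054 to 54333794 in shCON DHT and from 54331936 to 54333696 in shRB CDT. The widths were 1745, 1741 and 1761 bp in the same order. Each peak shared at least 89.9% of its length with either of the others. No other HOX site was at the cap in more than 1 list.

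The next HOXC site was 77.5 kb further along, with no peak of any list in between. It was listed in shCON DHT from 54411383 to 54412377 with a score of 619, and in shRB CDT from 54411433 to 54412604 with a score of 802. The peaks had 945 bp in common, and the nearest shCON CDT peak was 33.4 kb from the shRB CDT peak. This was the only region of the 4 windows listed after DHT and after RB depletion but not in hormone-deprived control cells, against 1241 such regions (5.90%) genome-wide. Near the high-coordinate end, the side of HOXC4, HOXC5 and HOXC6, shCON CDT alone listed a pair of peaks 102 bp apart. One ran from 54445982 to 54446180 with a score of 447, and the other from 54446283 to 54447082 with a score of 673.

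In HOXA, 1 site was listed in all 3 conditions. It lay near the low-coordinate end, the anterior side of the cluster, from 27135199 to 27136626 in shCON CDT, from 27135340 to 27136752 in shCON DHT and from 27135223 to 27136614 in shRB CDT. The scores were 690, 418 and 668, and 43.5%, 1.61% and 39.8% of the respective list scored lower, so the shCON DHT peak was among the weakest of its list. Its widths were 1428, 1413 and 1392 bp. With lists reduced to one length, the shCON DHT peak fell below the lowest score kept, 433, and the site was no longer common to all 3.

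The remaining HOXA peaks were all from shRB CDT, and regions listed in shRB CDT alone made up 22.5% of all regions. These HOXA peaks ran from 27182006 to 27182582 (score 427), from 27214530 to 27215129 (score 652) and from 27238371 to 27239400 (score 414). They lay at 43.6%, 70.7% and 90.7% of the window's length. The last of these lay on the side of HOXA13, a gene needed for limb and urogenital development. Control-hairpin cells had no HOXA peak closer than 45.3 kb to any of these sites. Of all shRB CDT peaks scoring below 700, 73.3% had no shCON CDT counterpart and 74.1% no shCON DHT counterpart. With every list reduced to its 12096 highest-scoring peaks, the length of the shortest list, the peak scoring 652 was still listed and those scoring 427 and 414 were not, as the lowest shRB CDT score kept was 500.

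HOXD was the cluster with no shared site. All 5 of its regions were listed in 1 condition, against 50.8% of all regions. They were 3 in shCON CDT, 2 in shRB CDT and 0 in shCON DHT. The shCON CDT peaks ran from 176970269 to 176971459 (score 519), from 176987429 to 176988327 (score 515) and from 177005185 to 177005981 (score 425). The shRB CDT peaks ran from 176957288 to 176958386 (score 475), towards HOXD13, and from 176994873 to 176995351 (score 465). No HOXD peak exceeded a score of 519, and 3.25% to 22.1% of the respective list scored lower than each of them. Low-scoring peaks were often unshared in the whole lists too. Below a score of 700, 51.4% of shCON CDT peaks were not in shRB CDT, and 73.3% of shRB CDT peaks were not in shCON CDT. The HOXD peaks of the 2 conditions were interleaved along the window without touching, and the closest pair was 6.54 kb apart. No midpoint lay beyond 50.5% of the window's length. The nearest shCON DHT peak to any of these sites was 128 kb away. With lists reduced to one length, both shRB CDT peaks fell below the score kept, and HOXD had listed sites in shCON CDT alone.

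The median score of HOX peaks was below that of the whole list in each condition, while the share of peaks at the cap could not be told from that of the list. In shCON CDT they had a median of 507, against 760 for all peaks of the list, and 1 of 10 was at the cap (95% exact binomial interval 0.253% to 44.5%) against 32.5%. In shCON DHT the medians were 586 and 690, and 1 of 5 peaks was at the cap (20.0%, 0.505 to 71.6) against 27.0%. In shRB CDT the medians were 660 and 784, and 2 of 10 were at the cap (20.0%, 2.52 to 55.6) against 35.1%. The cap peaks were the HOXC site at the low end of the window, in every list, and the HOXB13 start in shRB CDT. Median widths of the HOX peaks were 806 bp for shCON CDT (whole list 937 bp), 995 bp for shCON DHT (776 bp) and 1064 bp for shRB CDT (992 bp). The intervals cover counting error only, and all 3 contain the share of the whole list at the cap.

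**Figure D3:**
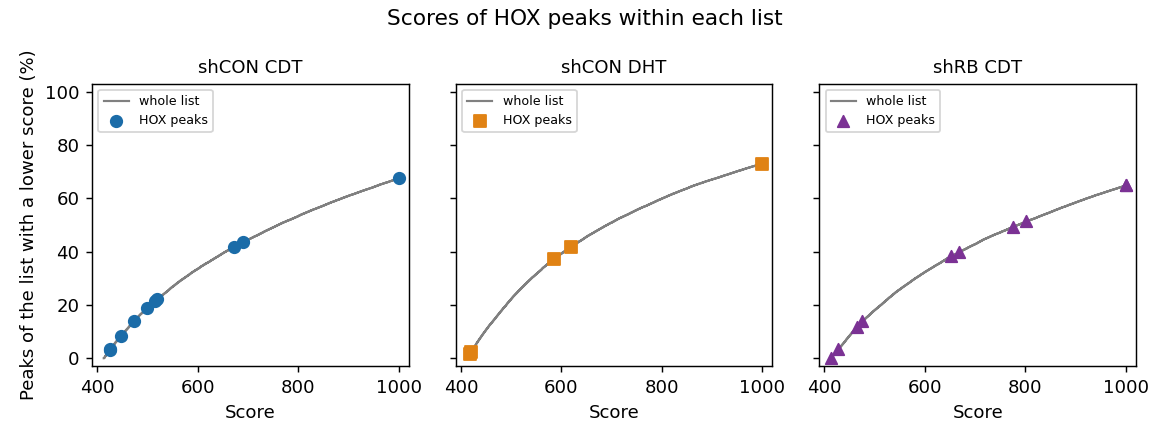
Share of a list's peaks with a lower score in percent (y axis) against the score (x axis), with the whole list as a grey line and its HOX peaks as markers, 1 panel per list. The HOX markers run from the low end of each curve to the cap, and those at 1000 are the HOXC site in every list and the HOXB13 start in shRB CDT.

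Over the 4 windows together, peaks were denser than over the genome. The genome length and the tiles used here include gene-poor stretches, and other gene-rich windows were not compared. The windows held 17.9 peaks per Mb for shCON CDT and for shRB CDT, and 8.93 for shCON DHT, against 3.91, 4.78 and 4.17 over the 3093 Mb up to the last peak of each chromosome. Peaks covered 1.61%, 1.82% and 0.878% of the windows in the same order, and 0.377%, 0.484% and 0.334% of the genome. The densest case was HOXA in shRB CDT, with 4 peaks in 120 kb. Of 25762 tiles of that length, 2.22% held as many or more. The 3 shCON CDT peaks of HOXC and of HOXD were matched or exceeded in 3.72% and 3.20% of tiles of their length, and the 3 of HOXB in 9.84%. The other cases were less set apart. The single HOXA peak of shCON CDT and of shCON DHT was matched or exceeded in 30.0% and 31.4% of tiles. The 2 HOXB peaks of shCON DHT and of shRB CDT were matched in 22.4% and 25.2%, the 2 HOXC peaks of the same lists in 11.9% and 13.9%, and the 2 HOXD peaks of shRB CDT in 12.4%. HOXD in shCON DHT held 0 peaks, as did 70.4% of tiles of its length. Around HOXA and HOXC the neighbourhood was empty: in the stretches of window length on either side, no list had a peak. The nearest outside peaks were at least 133 kb from these windows. The nearest to HOXD was 73.8 kb away and the nearest to HOXB 29.2 kb, both in shRB CDT.

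Regions listed in a single condition were the largest class, in the HOX windows as over the genome. Of the 18 regions, 2 (11.1%, 1.38 to 34.7) had a peak in all 3 lists, against 34.0% of all regions. Another 13 (72.2%, 46.5 to 90.3) had a peak in 1 list, against 50.8%, which lies inside that interval, and 3 (16.7%) in exactly 2 lists, against 15.2%. By condition, 6 regions were listed in shCON CDT and neither other list, against a background of 12.6%, and made up 33.3% (13.3 to 59.0) of the HOX regions. Those of shRB CDT numbered 5 (27.8%, 9.69 to 53.5), against 22.5%, and those of shCON DHT numbered 2 (11.1%), against 15.7%. The 2 regions shared by shCON CDT and shRB CDT, the promoter-side HOXB13 site and the HOXB site below it, compare with 6.66% of all regions. No HOX region was shared by shCON CDT and shCON DHT without shRB CDT, a class that held 2.69% of all regions. Several regions lie in the same cluster and are not independent.

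In the comparison of RB depletion in hormone-deprived cells, each list held 10 HOX peaks, of which 4 overlapped the other list. The equal totals held for the full lists only: there were 6 shRB CDT peaks against 10 with lists reduced to one length, and 3 against 1 in the upper 50% of each list. Of 10 shRB CDT peaks, 6 had no counterpart in shCON CDT (60.0%, 26.2 to 87.8), against 40.9% of the whole list. They were the 3 HOXA peaks, the HOXC site listed also after DHT, and the 2 HOXD peaks. In the other direction 6 of 10 shCON CDT peaks had no counterpart in shRB CDT (60.0%, 26.2 to 87.8), against 26.8%. These were the 3 HOXD peaks, the HOXC pair and 1 HOXB peak. Both intervals contain the share of the whole list, the second by a narrow margin. With peaks within 500 bp counted as shared, the HOX counts were the same and the whole-list share for the second was 25.4%, just outside its interval. Intervals here and in the comparisons below take peaks as independent, which peaks of 1 cluster, such as the HOXC pair, are not. No weight can therefore be put on such margins. Among peaks scoring below 700, where most HOX peaks fall, 5 of 6 shRB CDT peaks and 6 of 9 shCON CDT peaks were unshared, against 73.3% and 51.4% of such peaks in the whole lists. With lists reduced to one length, 2 of 6 shRB CDT peaks were unshared, against 31.7%, and 6 of 10 shCON CDT peaks, against 30.6%.

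The comparison of DHT with hormone deprivation in control cells showed fewer HOX peaks in the DHT list, 5 against 10. Over the genome the DHT list held more peaks, 12896 against 12096. They were narrower (median 776 against 937 bp) and covered less sequence, 10332 against 11672 kb. HOXA had 1 peak in each list, HOXB and HOXC 2 after DHT against 3 without, and HOXD 0 against 3. Of the 10 shCON CDT peaks, 8 had no shCON DHT counterpart (80.0%, 44.4 to 97.5), against 34.6% of the list. The 8 were all HOXB and HOXD peaks and the HOXC pair. Below a score of 700 they were 8 of 9 (88.9%, 51.8 to 99.7), against 62.6%. Of the 5 shCON DHT peaks, 3 had no shCON CDT counterpart (60.0%, 14.7 to 94.7), against 36.7%, and below 700 they were 3 of 4, against 61.6%. These were both HOXB peaks and the HOXC site shared with shRB CDT. With lists reduced to one length, the windows held 3 shCON DHT peaks, of which 2 were not in shCON CDT, against 33.7%. Of the 10 shCON CDT peaks, 9 were then not in shCON DHT, against 35.7%. In the upper 50% of each list, both lists held 1 HOX peak, the HOXC site of all conditions, so the difference in number rests on peaks of lower score. That 0 of 1 was unshared in either direction, against 25.6% and 28.7% of the cut lists, says little.

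Between shRB CDT and shCON DHT, 7 of 10 shRB CDT peaks were unshared (70.0%, 34.8 to 93.3), against 42.1%, and 2 of 5 shCON DHT peaks (interval 5.27% to 85.3%), against 30.6%. Below a score of 700 the counts were 5 of 6 and 2 of 4, against 74.1% and 53.5%. The sites in common were the HOXA and HOXC sites of all conditions and the HOXC site absent from shCON CDT. Both HOXB peaks of shRB CDT, the HOXB13 start among them, and both HOXB peaks of shCON DHT were unshared. This comparison and the previous ones share their lists and are not independent of each other.

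**Figure D4:**
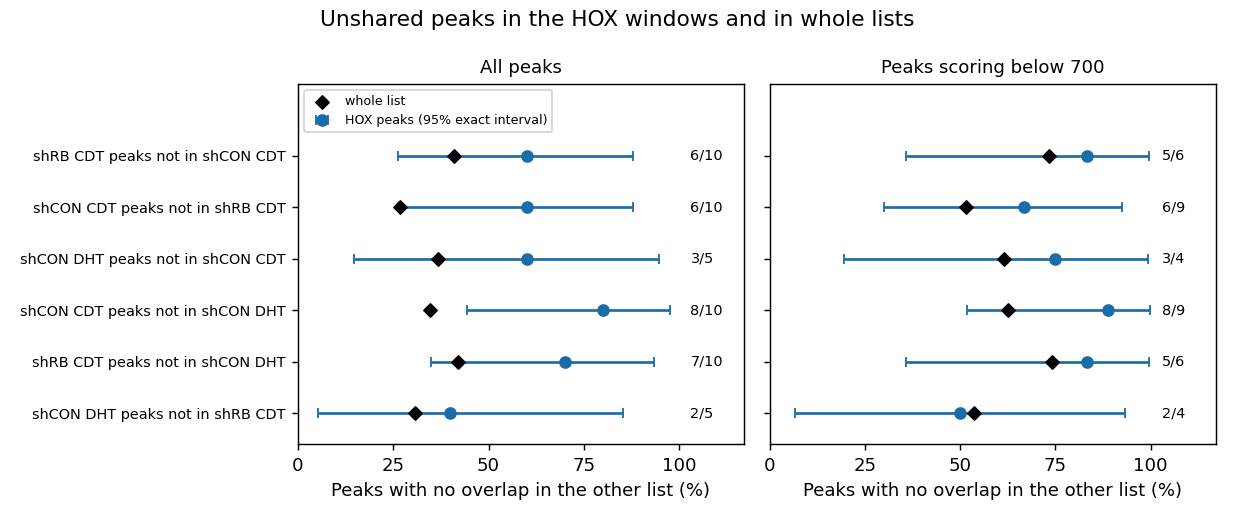
Share of peaks with no overlap in the other list in percent (x axis) for the 6 directions of comparison, for HOX peaks with 95% exact intervals (circles, counts at the right) and for whole lists (diamonds), among all peaks and among those scoring below 700. Most intervals span the whole-list value, and the shCON CDT peaks not in shCON DHT, 8 of 10, lie above it among all peaks. The intervals take peaks as independent, which peaks of the same cluster are not.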

How the data were processed

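ATAC-seq was deposited as 3 peak lists, each pooling replicates 1 and 2 of its group. Per the labels, list names give an irreproducible discovery rate (IDR) of 0.1 and say that peaks were filtered, merged and scored. The names also carry the tag ppr. Passing the IDR is not read here as agreement between the 2 libraries of a group. Per the submitters' processing notes, coordinates are hg19. For the aligner, peak caller and transposase shift, the method is not given in the sources used here. The deposited score is the authors' own and runs from 413 to 1000. Peaks were compared by overlaps of at least 1 bp (bedtools 2.31.1, Python 3.11.15, scipy 1.17.1), and the code recovered 17 of 17 answers on simulated data. Positions count from 1.

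Members, windows and lists were chosen with earlier results of these data known. Regions named were those within 10 kb of the HOXB13 start, the highest-scoring peak per list and window, and all regions absent from a list, where a class held at most 12. The score band of 700, the tiles (counted by peak midpoint) and the genome-wide counts beside HOXB13 were chosen after the data were seen. Peaks were not assigned to other genes for want of an hg19 annotation.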

Additional observations from a re-analysis of the deposited data

How the results depend on the processing

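Counts of HOX peaks and regions depended on the score threshold and list length. A 50% reciprocal overlap, and peaks within 500 bp counted as shared, left each class and unshared count of the windows within 1.5 times (whole-list shares moved, from 26.8% to 34.3% and 25.4% for shCON CDT peaks not in shRB CDT), as did peaks wholly inside a window for the peak numbers. Peaks reset to 500 bp moved 1 value: the peaks over the HOXB13 start in shRB CDT went from 1 to 0. With the upper 50% of peaks kept per list, the windows kept 1 shCON CDT, 1 shCON DHT and 3 shRB CDT peaks. That gave 0 regions of shCON CDT only, 0 of shCON DHT only and 2 of shRB CDT only. It gave 0 in both CDT lists, 0 shared by DHT and RB-depleted cells alone, and 1 of 3 in all 3 lists, against 44.5% of all regions at that cut. The 2 of shRB CDT only were the promoter-side HOXB13 site and the HOXC site at 54411383, both shared in the full lists. Their counterparts, scoring 473 in shCON CDT and 619 in shCON DHT, were cut. The 5 regions of shRB CDT only in the full lists all scored below the lowest shRB CDT score kept, 784. Unshared shRB CDT peaks then numbered 2 of 3 against shCON CDT and 2 of 3 against shCON DHT. The shares over the whole cut list were 32.4% and 31.9%. The other 4 directions had 0 of 1 each, against 16.7% to 28.7% of the whole cut lists. With 1 to 3 HOX peaks per list, these counts say little. With lists cut by score to 12096 peaks, the windows held 3 shCON DHT and 6 shRB CDT peaks. Regions of shCON DHT only numbered 1, of shRB CDT only 1 and of all 3 lists 1. Of the shRB CDT peaks, 2 of 6 were not in shCON CDT, against 31.7% of the whole cut list, and 4 of 6 not in shCON DHT, against 34.2%. Of the shCON DHT peaks, 1 of 3 was not in shRB CDT, against 31.1%, and 2 of 3 not in shCON CDT, against 33.7%. Of the shCON CDT peaks, 6 of 10 were not in shRB CDT, against 30.6%, and 9 of 10 not in shCON DHT, against 35.7%. Both settings drop low-scoring peaks by construction, the second from shCON DHT and shRB CDT only. How far this accounts for the lower numbers was not tested. No paired analysis was possible because both replicates were merged into 1 list per group, and no replicate could be left out.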

Other observations

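The RefSeq promoter table (GRCh38.p14) held 27 windows of 300 bases for 20 of the 38 HOX genes, 7 of them alternative starts of HOXA3. Most windows were of HOXA genes, HOXB was represented by HOXB1 alone, and HOXB13 had none. The dinucleotide CG, which reads the same on both strands, occurred a median of 22.0 times per HOX window, against 14.0 over all 35116 windows of the table, while GC content was 58.0% and 58.7%. The count was highest at HOXA13, with 44, and 4 at HOXD4. 1 HOXA3 start had 0. HOXC4 and HOXC5 share a promoter window in the table, which was counted for each gene. These windows could not be placed on the hg19 peaks, so their relation to the listed sites was not tested.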
